A study of Mus musculus with 4 samples.

Results

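The chaperones of the endoplasmic reticulum and the genes of the unfolded protein response were examined as a set of 35 named genes. They were chosen by symbol, with earlier results of these data known. All 35 had a probe set that maps to 1 gene symbol, out of 18193 such genes on the array, and all 35 passed the filter on low values that left 15102 genes for testing. The set was divided by role into 11 chaperones and co-chaperones of the lumen, 6 disulfide isomerases and other folding enzymes, 9 sensors, transcription factors and ATF4/CHOP targets, and 9 genes of degradation and of the translocon. Each gene was read at the probe set with the highest mean of the 4 arrays (the brightest). The second brightest ("next") probe set is given beside it for most of the genes that have one.

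The endoplasmic reticulum is the compartment in which secreted and membrane proteins are folded, joined by disulfide bonds and checked. In muscle its specialised part, the sarcoplasmic reticulum, also stores calcium, and several lumen chaperones bind calcium. When unfolded proteins accumulate there, the sensors IRE1 (gene Ern1), PERK (gene Eif2ak3) and ATF6 start the unfolded protein response: IRE1 splices Xbp1 mRNA, PERK slows translation while favouring ATF4, and cleaved ATF6 enters the nucleus. The factors XBP1, ATF6 and ATF4 then raise the transcription of chaperones, degradation genes and amino acid synthesis genes. The arrays measured mRNA levels only, and neither Xbp1 splicing nor protein was read here.

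The RNA came from the tibialis cranialis, a muscle of the lower hind limb, of 8 male C57Bl/6 mice. All mice had been fed a high fat diet from 8 weeks of age, received their injections after 4 weeks on it, and were 22 weeks old when the muscles were taken 10 weeks later. The ProMyo group is the leg that received AAV8 ProMyo, an adeno-associated virus vector that by its name carries the propeptide of myostatin, a growth factor that limits muscle size. The saline group is the opposite leg of the same mice, which received saline and no control vector, so effects of the vector and of its cargo cannot be told apart, and no group on regular chow enters this comparison. The promoter of the vector is not given in the sources used here. Each array carried RNA pooled in equal amounts from 4 mice, so there were 4 arrays, 2 per group, with animals 1 to 4 and animals 5 to 8 represented once in each group. The p-values and standard errors (SE) therefore rest on the spread between 2 pools per group, not between single animals. The test used, limma, moderates both with the spread of all genes tested, so an SE can exceed the spread of its own gene.

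Values are log2 expression on the deposited RMA scale, and a difference is always ProMyo minus saline. Array medians lay between 1.06 and 1.11, which is low for RMA, so fold values hold on this scale only. The saline array of animals 5 to 8 stood apart: its upper quartile was 2.97, against 3.15 to 3.19 on the others, and its hybridization controls averaged 11.1, against 10.1 to 10.2. The highest of 27 Bacillus control probe sets, 0.57 to 0.99 across the arrays, was taken as background. The 3' minus 5' difference of the control probe sets, a sign of RNA or labelling quality, was 0.58 and 0.74 on the ProMyo arrays and 0.90 and 0.81 on the saline arrays for Gapdh, and 1.64 and 1.72 against 1.96 and 1.80 for Actb. Both controls were thus lower on each ProMyo array than on each saline array, and the part of this difference in the results below was not tested. All 15 muscle fibre markers were measured above the filter, with summed linear values of 44800 and 43290 on the ProMyo arrays and 42640 and 39780 on the saline arrays.

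The DNA in front of these genes is shown first, because it does not depend on the measured values. The ER stress response element (ERSE) is the classical site of this response, where NF-Y binds one end and ATF6 or XBP1 the other. It was searched as CCAAT and CCACG with exactly 9 bases of any kind between them, on both strands of RefSeq promoters of build GRCm38.p6, each covering 250 bases before to 50 bases after the start of a gene. A promoter was listed for 30 of the 35 members (31 promoters); Hyou1, Manf, Atf6, Derl1 and Sec61a1 had no entry. Of these 30 genes, 8 held an ERSE (26.7%), against 37 of 27025 genes in the table (0.137%). Since the members were named for the response of which the ERSE is the classical site, these shares are a description and not independent support. They were 6 lumen chaperones, 1 isomerase and 1 degradation gene. The elements are printed 5' to 3' from the CCAAT end, with the searched letters in capitals, and so those of Calr and Creld2 and the second of Hsp90b1 are read from the strand opposite to the gene.
Hspa5 (65 to 47 bases before the start): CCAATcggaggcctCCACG
Hsp90b1 (212 to 194 bases before): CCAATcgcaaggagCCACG
Hsp90b1 (107 to 89 bases before): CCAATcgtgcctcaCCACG
Calr (162 to 144 bases before): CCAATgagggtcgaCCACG
Canx (145 to 127 bases before): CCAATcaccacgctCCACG
Creld2 (126 to 108 bases before): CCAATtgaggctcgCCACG
Dnajc3 (105 to 87 bases before): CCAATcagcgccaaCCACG
Pdia6 (98 to 80 bases before): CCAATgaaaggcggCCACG
Syvn1 (44 to 26 bases before): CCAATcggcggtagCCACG
The 9 bases between the searched ends differed from element to element.

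The 250 bases upstream of Hspa5 and Hsp90b1, the main chaperones of the HSP70 and HSP90 families in this compartment, show the elements in place, with the searched ends in capitals. The Hspa5 stretch is chr2:34771840-34772089 on the plus strand, and the Hsp90b1 stretch is chr10:86705445-86705694 on the minus strand, both in GRCm38.p6 and written 5' to 3' in the direction of the gene.
Hspa5: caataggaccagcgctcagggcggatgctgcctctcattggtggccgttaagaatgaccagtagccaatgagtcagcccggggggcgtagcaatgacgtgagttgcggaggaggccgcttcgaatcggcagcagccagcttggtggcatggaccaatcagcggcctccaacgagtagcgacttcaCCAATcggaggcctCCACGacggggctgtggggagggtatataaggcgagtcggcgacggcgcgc
Hsp90b1: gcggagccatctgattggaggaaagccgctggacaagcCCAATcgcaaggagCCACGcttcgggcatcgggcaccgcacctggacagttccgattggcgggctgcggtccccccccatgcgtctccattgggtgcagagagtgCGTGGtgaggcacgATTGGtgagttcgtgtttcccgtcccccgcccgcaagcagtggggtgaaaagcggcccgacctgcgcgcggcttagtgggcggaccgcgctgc
In the Hsp90b1 stretch the second element runs against the gene, so its capitals appear as the reverse complement.

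Other motifs were rarer among the members. The related ERSE-II, searched on both strands as ATTGG and CCACG with 1 base between them, lay 52 to 42 bases before the start of Herpud1 and just after the start of Dnajb11 (6.67% of the 30 members, against 0.0444% of all genes). The XBP1 motif TGACGTGG (UPRE) lay before Vcp alone among the members (3.33% against 0.714%). A composite site for ATF4, searched as TGATGNAA, was present at Asns, Chac1, Herpud1 and Trib3 (13.3% against 4.51%). The letters of these sites were as follows.
Herpud1, ERSE-II: ATTGGgCCACG
Dnajb11, ERSE-II: ATTGGcCCACG
Asns, ATF4 site: TGATGaAA
Chac1, ATF4 site: TGATGcAA
Herpud1, ATF4 site: TGATGcAA
Trib3, ATF4 site: TGATGtAA
The ends of the ERSE were common on their own: CCAAT occurred in 80.0% of the 30 members and 41.1% of all genes, and CCACG in 80.0% and 35.5%; both are contained in the ERSE. A match describes the letters and is not evidence of binding in this muscle.

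**Figure D1:**
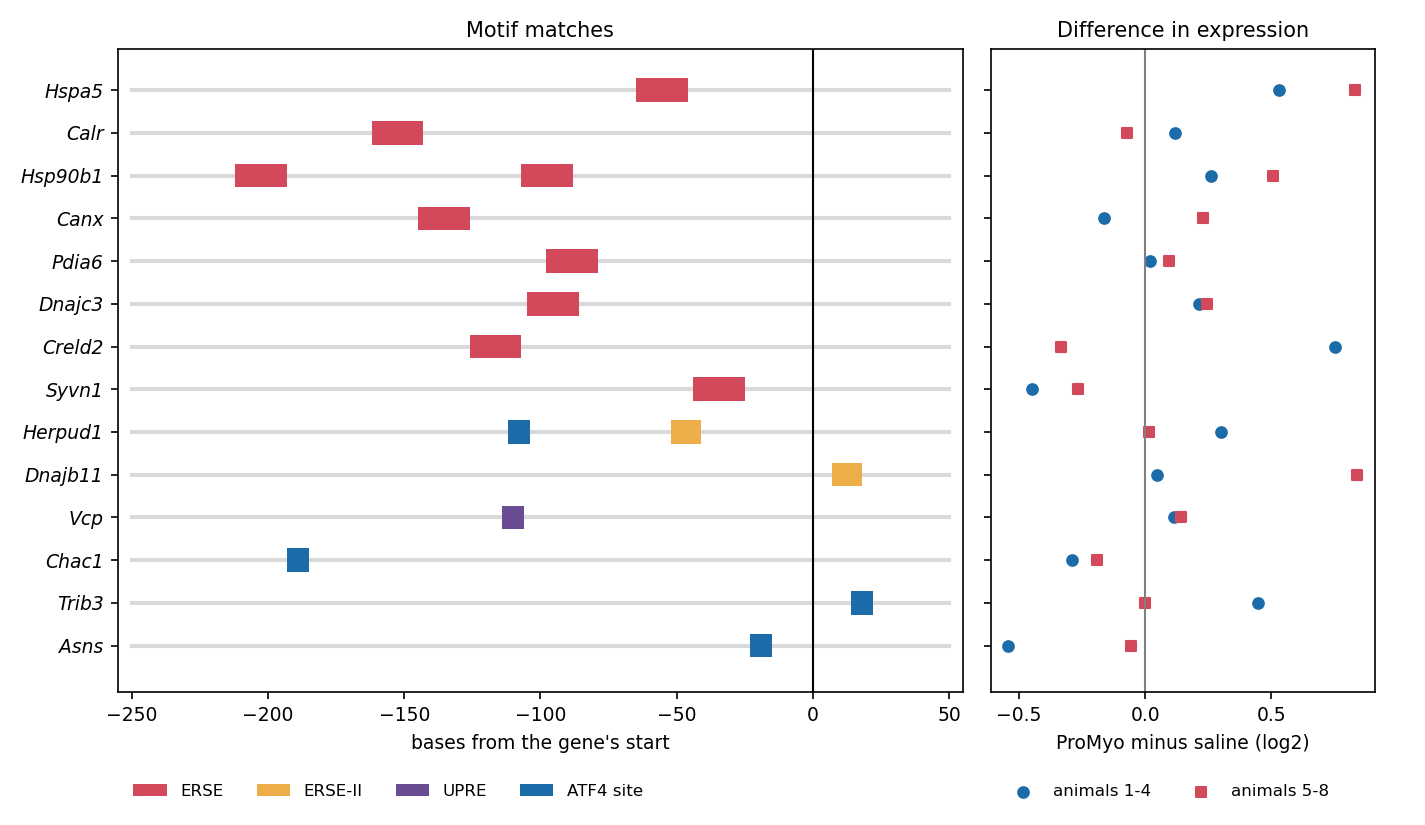
Left, motif matches in the promoters of the 14 members that hold an ERSE, ERSE-II, UPRE or ATF4 site, plotted by distance in bases from the start of the gene; right, the log2 difference ProMyo minus saline of the same genes in animals 1 to 4 (circles) and animals 5 to 8 (squares). Genes with an ERSE lie on both sides of 0, from Syvn1 at -0.36 to Hspa5 at 0.68 (means of both pools).

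Across the whole set, no member passed the test for a difference between ProMyo and saline, and neither did any other gene. In limma with Benjamini-Hochberg adjustment over 15102 genes, 0 genes were called (0.00%), and the adjusted p-values of the members ran from 0.82 to 1.0. At an unadjusted limma p under 0.05 there were 2 members, Hspa5 and Manf, both higher in ProMyo, beside 5.79% of all genes in either direction (3.07% higher, 2.72% lower). By direction within the pools, 17 of 35 members were higher in ProMyo in both animals 1 to 4 and animals 5 to 8 (48.6%, against 29.0% of all genes tested). Another 5 members, P4hb, Asns, Chac1, Syvn1 and Derl1, were lower in both (14.3% against 24.0%), and 13 had opposite signs or 0 in a pool (37.1% against 47.0%). The median difference of the members was 0.09, against 0.013 for all genes. Without regard to sign, the median size of a member's difference was 0.23, against 0.16 for all genes. Of 35 members, 19 lay further from 0 than 1 of their moderated standard errors, but the share of all genes was not computed.

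Separation of the arrays gave a similar description. Both ProMyo arrays lay above both saline arrays for 10 members (28.6%, against 17.8% of all genes): Hspa5, Hsp90b1, Dnajc3, Manf, Pdia3, Ppib, Atf6, Edem1, Derl2 and Sec61b. Both lay below for 4 members (11.4% against 15.7%): P4hb, Chac1, Syvn1 and Derl1. No member differed by 1.5-fold or more, with 1 sign, in both pools, against 1.60% of all genes (1.03% higher, 0.563% lower).

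These counts depended on single arrays and on the scale. Without the saline array of animals 5 to 8, 12 members were higher in both remaining differences (34.3%, all genes 29.5%), and the members' median was -0.007. Without the ProMyo array of animals 1 to 4 there were also 12 (34.3%, all genes 30.5%), with a median of 0.02. Without the ProMyo array of animals 5 to 8 there were 22 (62.9%, all genes 35.2%) and 9 lower. Both differences share the remaining array of the reduced group in these counts. When the arrays were centred on their upper quartile, 12 members were higher in both pools (34.3%, all genes 19.1%), 9 were lower (25.7%, all genes 34.6%), and the medians were 0.002 for the members and -0.08 for all genes.

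**Figure D2:**
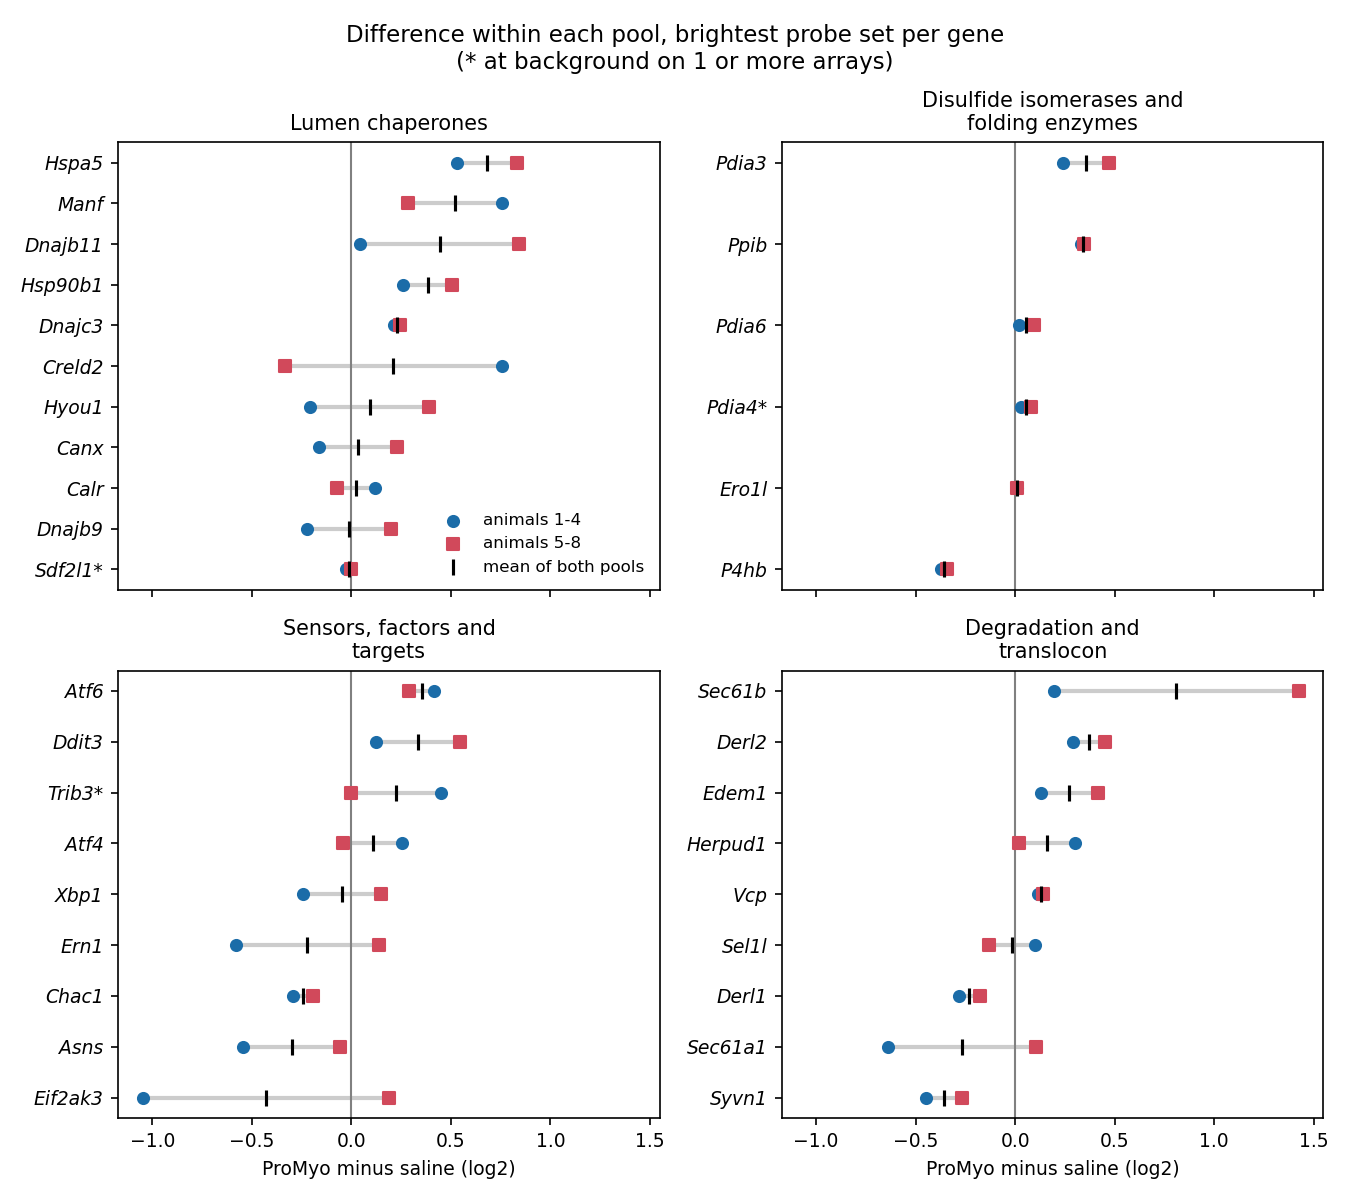
ProMyo minus saline (log2) of each member at its brightest probe set, in animals 1 to 4 (circles), animals 5 to 8 (squares) and as their mean (bars), by role; asterisks mark members within background on at least 1 array. Among the lumen chaperones, 5 genes lie right of 0 in both pools and none left of 0 in both, while the sensors and factors spread to both sides, from Eif2ak3 at -0.43 to Atf6 at 0.35.

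The lumen chaperones bind nascent proteins and keep them from aggregating. Of the 11, 5 were higher in ProMyo in both pools, none was lower in both, and 6 had opposite signs or 0 in a pool. Their median difference was 0.21, but 0.12 with arrays centred on the upper quartile and 0.03 without the saline array of animals 5 to 8. The largest mean difference among them belonged to Hspa5, and none of the 11 was called in limma.

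Hspa5 encodes BiP, the HSP70 of the lumen, which also holds the sensors inactive until unfolded proteins draw it away. Its level at probe set 1416064_a_at was 7.75 in ProMyo animals 1 to 4 and 7.86 in animals 5 to 8, against 7.22 and 7.03 in the saline legs of the same animals. Both ProMyo arrays were above both saline arrays, by 0.53 in the first pool and 0.83 in the second. The mean difference was 0.68 ± 0.17 (SE, n = 2 pools per group), or 1.60-fold, with an unadjusted limma p of 0.0089 and an adjusted p of 0.82. With the animals' pool as a block, the unadjusted limma p was 0.017 and the adjusted p was 0.68. The next probe set, 1427464_s_at, read 7.33 and 7.18 in ProMyo and 6.66 and 6.61 in saline, a difference of 0.62. Leaving out any 1 array moved the difference of the brightest probe set between 0.58 and 0.78. Without the saline array that stood apart it was 0.58, and since the groups did not overlap its sign could not turn.

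Hsp90b1 encodes GRP94, which folds a narrower range of clients, among them integrins and insulin-like growth factors. At 1415889_a_at it read 6.00 and 6.27 in ProMyo and 5.74 and 5.77 in saline, so the groups did not overlap. The difference was 0.38 ± 0.17 (SE), with 0.26 and 0.51 in the pools and an adjusted limma p of 0.83. The next probe set did not share it: 1438040_a_at differed by -0.06, with 0.07 in the first pool and -0.20 in the second.

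Manf encodes a small lumen protein that binds BiP and is also secreted. It read 3.79 and 3.40 in ProMyo against 3.04 and 3.12 in saline, again without overlap. The difference was 0.52 ± 0.20 (SE), 0.76 in the first pool and 0.28 in the second, with an unadjusted limma p of 0.044 and an adjusted p of 0.82; with the pool as a block the unadjusted limma p was 0.057. The array has 1 single-symbol probe set for Manf, so no second reading was available. Without any 1 array the difference stayed between 0.33 and 0.71.

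Dnajb11, a J-domain co-chaperone of BiP, read 4.15 and 4.00 in ProMyo and 4.10 and 3.16 in saline. The mean difference of 0.44 ± 0.33 (SE) came from the low saline array of animals 5 to 8: it was 0.05 in the first pool and 0.84 in the second, and -0.03 without that array. Dnajc3, another J-domain partner that also inhibits PERK, had a mean level of 6.28 and a difference of 0.23 ± 0.17 (SE), 0.21 and 0.25 in the pools. Of its 4 probe sets above background on all arrays, 3 were higher in both pools and all 4 had a mean difference above 0; the next one differed by 0.33.

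The calcium-binding chaperones of glycoproteins, calreticulin and calnexin, had differences far smaller than their standard errors. Calr, at a mean level of 8.87, differed by 0.02 ± 0.18 (SE), and Canx, at 7.80, by 0.03 ± 0.19 (SE), each with opposite signs in the pools and both below 0 with the upper quartile as centre. All 3 probe sets of Calr gave opposite signs. The next probe set of Canx differed by 0.41, but by -0.07 in the first pool and 0.88 in the second. With standard errors near 0.2, these values do not show equal levels.

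The remaining lumen genes also had no common direction across the pools. Creld2, a secreted target of the response, had a mean level of 1.88 and differed by 0.76 in the first pool and -0.33 in the second. Hyou1, a large HSP70-like protein that exchanges nucleotide on BiP, had a level of 3.81 and a difference of 0.09, from -0.21 and 0.39. Dnajb9, a J-domain protein that restrains IRE1, had a level of 7.58 and a difference of -0.01, from -0.22 and 0.20. Sdf2l1, a partner of the J-domain proteins, sat near background at 0.80 and was within it on 1 array, so its difference of -0.01 carries little information.

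**Figure D3:**
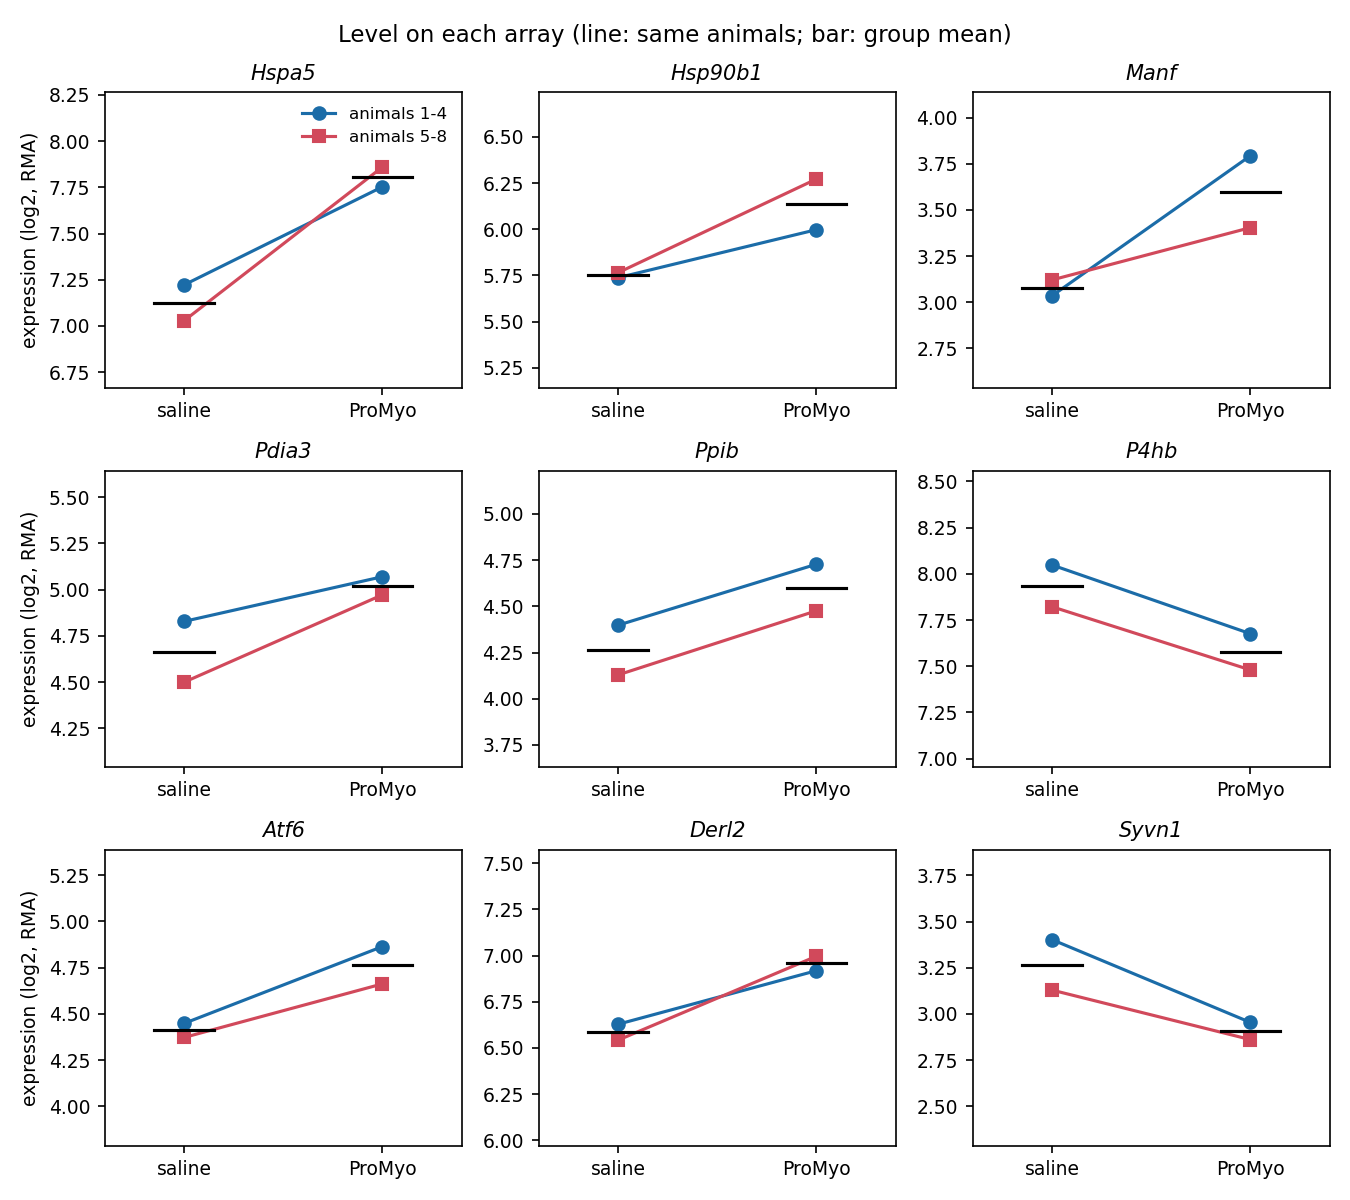
Level (log2, RMA) of 9 members on each of the 4 arrays, with lines joining the saline and ProMyo legs of the same animals and bars at the group means; each panel has its own axis of equal span. All 9 come from the 10 higher and 4 lower members whose groups do not overlap, so the panels do not represent all 35. Such members made up 28.6% and 11.4% of the 35, against 17.8% and 15.7% of all genes. Hspa5, Hsp90b1, Manf, Pdia3, Ppib, Atf6 and Derl2 are higher in ProMyo, and P4hb and Syvn1 lower.

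The disulfide isomerases and folding enzymes make and rearrange disulfide bonds and turn proline bonds. Of the 6, 5 were higher in ProMyo in both pools and 1, P4hb, was lower in both, with a median of 0.06. For 3 of the 5 (Pdia4, Pdia6 and Ero1l) the differences were 0.06 or less, and their signs turned with the upper quartile as centre. The group median itself turned to -0.03 there, to -0.05 at the next probe sets and to -0.02 without the saline array of animals 5 to 8; without the other arrays it was 0.006 (ProMyo, animals 1 to 4), 0.10 (ProMyo, animals 5 to 8) and 0.14 (saline, animals 1 to 4).

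P4hb encodes protein disulfide isomerase, which is also the beta subunit of collagen prolyl 4-hydroxylase. It read 7.68 and 7.48 in ProMyo against 8.05 and 7.82 in saline. In both pools it was lower in ProMyo, by nearly the same amount, -0.37 and -0.34. The mean difference was -0.36 ± 0.18 (SE), or 1.28-fold, with an adjusted limma p of 0.83, and without any 1 array it lay between -0.47 and -0.24. P4hb has 1 single-symbol probe set.

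Pdia3 encodes ERp57, the isomerase that works with calreticulin and calnexin. It read 5.07 and 4.97 in ProMyo and 4.83 and 4.50 in saline, a difference of 0.36 ± 0.19 (SE; adjusted limma p 0.83), with 0.24 and 0.47 in the pools. Its next probe set, with a mean of 1.28, differed by -0.06. Ppib encodes cyclophilin B, a prolyl isomerase that acts on collagen. It read 4.73 and 4.48 against 4.40 and 4.13, a difference of 0.34 ± 0.19 (SE; adjusted limma p 0.83) with 0.33 and 0.35 in the pools. The next Ppib probe set had a mean of 4.33 and differed by 0.23 in the first pool and -0.30 in the second.

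Pdia6, an isomerase that can bind IRE1, read 3.70 and 3.58 in ProMyo and 3.68 and 3.49 in saline, a difference of 0.06 ± 0.17 (SE) with overlapping groups. Ero1l, the oxidase that recharges protein disulfide isomerase, had a level of 5.26 and differed by 0.01 in each pool. All 3 of its probe sets were above background and higher in both pools, the next by 0.82 and 0.06. Pdia4, a further isomerase of the lumen, was within background on 3 of 4 arrays, at a mean of 0.59, and gives no usable difference.

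Among the sensors and factors, only Atf6 and Ddit3 were higher in both pools, Asns and Chac1 were lower in both, and the other 5 had opposite signs or 0 in a pool. The group median was -0.05, with -0.24 in the first pool and 0.14 in the second, and it was 0.11 without the saline array of animals 1 to 4 and -0.18 without that of animals 5 to 8. None of the 9 was called in limma.

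Atf6 encodes the sensor that is itself a transcription factor once cleaved. It read 4.86 and 4.66 in ProMyo and 4.45 and 4.37 in saline, a difference of 0.35 ± 0.17 (SE), with 0.42 and 0.29 in the pools and an adjusted limma p of 0.83. Its 3 probe sets were all above background and all higher in both pools, by 0.31 at the next, with no overlap of the groups.

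Ern1 encodes IRE1, the kinase and RNase that splices Xbp1 mRNA. It read 3.12 and 3.62 in ProMyo and 3.70 and 3.48 in saline, so the pools pointed in opposite directions, by -0.58 and 0.14, and the mean difference was -0.22 ± 0.23 (SE). The next Ern1 probe set, with a mean of 1.02, was lower in both pools, by -0.05 and -0.01, with overlapping groups. Xbp1 read 4.35 and 4.28 against 4.59 and 4.13, a difference of -0.05 ± 0.21 (SE), with opposite signs in the pools. The next Xbp1 probe set differed by -0.23, alike in both pools; of 4 probe sets above background, 2 were lower in both pools and 2 had opposite signs. These probe sets were not assigned to the spliced or unspliced form.

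Eif2ak3 encodes PERK, the kinase that phosphorylates the translation factor eIF2 alpha. It was dim, at 1.25 and 1.88 in ProMyo and 2.30 and 1.69 in saline, and differed by -1.05 in the first pool and 0.19 in the second. The mean of -0.43 ± 0.31 (SE; adjusted limma p 0.86) ran from -0.74 to -0.12 when an array was left out. The other 2 probe sets, both above background on all arrays, were lower in both pools: the next by -0.12 and -0.14 with overlapping groups, and the third by -0.59 and -1.40 (mean -0.99) without overlap.

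Atf4 encodes the factor whose translation rises when PERK is active, so its mRNA is an incomplete measure of it. It read 7.77 and 7.46 in ProMyo and 7.51 and 7.50 in saline, a difference of 0.11 ± 0.18 (SE), and the next probe set differed by -0.03. Ddit3 encodes CHOP, the factor of prolonged stress. It read 4.60 and 4.31 against 4.47 and 3.76, a difference of 0.34 ± 0.28 (SE; adjusted limma p 0.87), with 0.13 and 0.55 in the pools. Without the saline array of animals 5 to 8 the Ddit3 difference was -0.02. The next Ddit3 probe set was higher by 0.81 and 0.83 in the pools, from 2.11 and 1.68 against 1.29 and 0.86, but the last of these values was within background.

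The 3 targets of ATF4 and CHOP had no common direction. Asns, asparagine synthetase, read 1.63 and 2.17 in ProMyo and 2.17 and 2.23 in saline, a difference of -0.30 ± 0.23 (SE), with -0.54 in the first pool and -0.06 in the second. Without the ProMyo array of animals 1 to 4 it was -0.03. The next Asns probe set differed by -0.35, without overlap of the groups, from -0.64 and -0.05 in the pools. Chac1, an enzyme that degrades glutathione, had a level of 6.00 and a difference of -0.24 ± 0.17 (SE), with -0.29 and -0.19 in the pools and both ProMyo arrays below both saline arrays. Trib3, a pseudokinase induced by CHOP, was within background on 2 arrays at a mean of 0.85, and differed by 0.45 in the first pool and by 0 in the second.

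The degradation and translocon genes move misfolded proteins out of the lumen to the proteasome, or new proteins into it. Of the 9, 5 were higher in both pools (Sec61b, Derl2, Edem1, Herpud1 and Vcp), 2 were lower in both (Syvn1 and Derl1) and 2 had opposite signs. Their median was 0.13, but 0.04 with the upper quartile as centre, 0.06 after quantile normalization and -0.02 at the next probe sets. Without the ProMyo array of animals 1 to 4 it was -0.10, without that of animals 5 to 8 it was 0.24, and without the saline arrays it was 0.25 (animals 1 to 4) and 0.01 (animals 5 to 8).

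Sec61b encodes the beta subunit of the translocon, the channel for new proteins. It had the largest mean difference of the 35 members, 0.81 ± 0.40 (SE; adjusted limma p 0.83), from 5.80 and 5.85 in ProMyo against 5.60 and 4.43 in saline. Most of it was the low saline array of animals 5 to 8: the pools differed by 0.19 and 1.43, and without that array the difference was 0.22. Sec61a1, the channel-forming alpha subunit, had a level of 4.28 and went -0.64 in the first pool and 0.11 in the second. Of its 5 probe sets above background, 3 were lower in both pools and none was higher in both. At the brightest probe sets the alpha and beta subunits had opposite signs in the first pool, and both were above 0 in the second.

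Derl1 and Derl2 encode derlins, relatives of each other that help pull proteins back across the membrane. Derl2 read 6.92 and 7.00 in ProMyo and 6.63 and 6.54 in saline, a difference of 0.37 ± 0.16 (SE), with 0.29 and 0.45 in the pools and an adjusted limma p of 0.82. Its next probe set gave the opposite, -0.20 and -0.40, also without overlap, and among the 20 members with both probe sets above background on all arrays Derl2 was the 1 whose probe sets opposed each other in both pools. Derl1 was lower in ProMyo in both pools at all 4 of its probe sets: at the brightest, with a level of 6.43, the difference was -0.23 ± 0.16 (SE), with -0.28 and -0.18 in the pools, and at the next it was -0.18.

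Syvn1 encodes HRD1, the ubiquitin ligase at the centre of this degradation route. It read 2.95 and 2.86 in ProMyo against 3.40 and 3.13 in saline, a difference of -0.36 ± 0.18 (SE; adjusted limma p 0.83), with -0.45 and -0.27 in the pools. The next Syvn1 probe set pointed the other way, by 0.13 and 0.99, with 1 array within background. Sel1l, its adaptor, had a level of 7.21 and a difference of -0.02, and its next probe set was higher by 0.64 and 0.70 with overlapping groups.

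Edem1 encodes a lectin-like protein that hands glycoproteins on for degradation. It was dim, at 1.81 and 1.78 in ProMyo and 1.68 and 1.37 in saline, and differed by 0.27 ± 0.18 (SE); its next probe set was within background on 3 arrays and differed by -0.17. Herpud1, a membrane organiser of the same complex and a strong target of the response, had a level of 6.13 and differed by 0.30 and 0.02 in the pools, and its next probe set by 0.41 and 0.54. Vcp, the ATPase that extracts proteins from the membrane, had a level of 6.84 and a difference of 0.13 ± 0.18 (SE), while its next probe set went 0.82 and -0.87.

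Agreement between probe sets of a gene can be stated for 20 members whose brightest and next probe sets were both above background on all arrays. The mean differences had the same sign for 13 of the 20. Both probe sets were higher in both pools for 5 genes (Hspa5, Dnajc3, Ero1l, Atf6 and Herpud1) and lower in both pools for 2 (Asns and Derl1). Over all 87 probe sets of the members, 66 were above background on all arrays, of which 26 were higher in both pools, 18 lower in both and 22 neither. These are repeated readings of the same genes on the same arrays, and the shares over all probe sets of the array were not computed. At the brightest probe set of each gene, 17 members were higher in both pools and 5 lower (48.6% and 14.3%, against 29.0% and 24.0% of all genes). Probe sets whose names end in _s_at or _x_at may also match transcripts of other genes; the brightest probe set was of such a type for 8 members, Calr, Canx, Hyou1, Xbp1, Trib3, Asns, Syvn1 and Derl1.

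**Figure D4:**
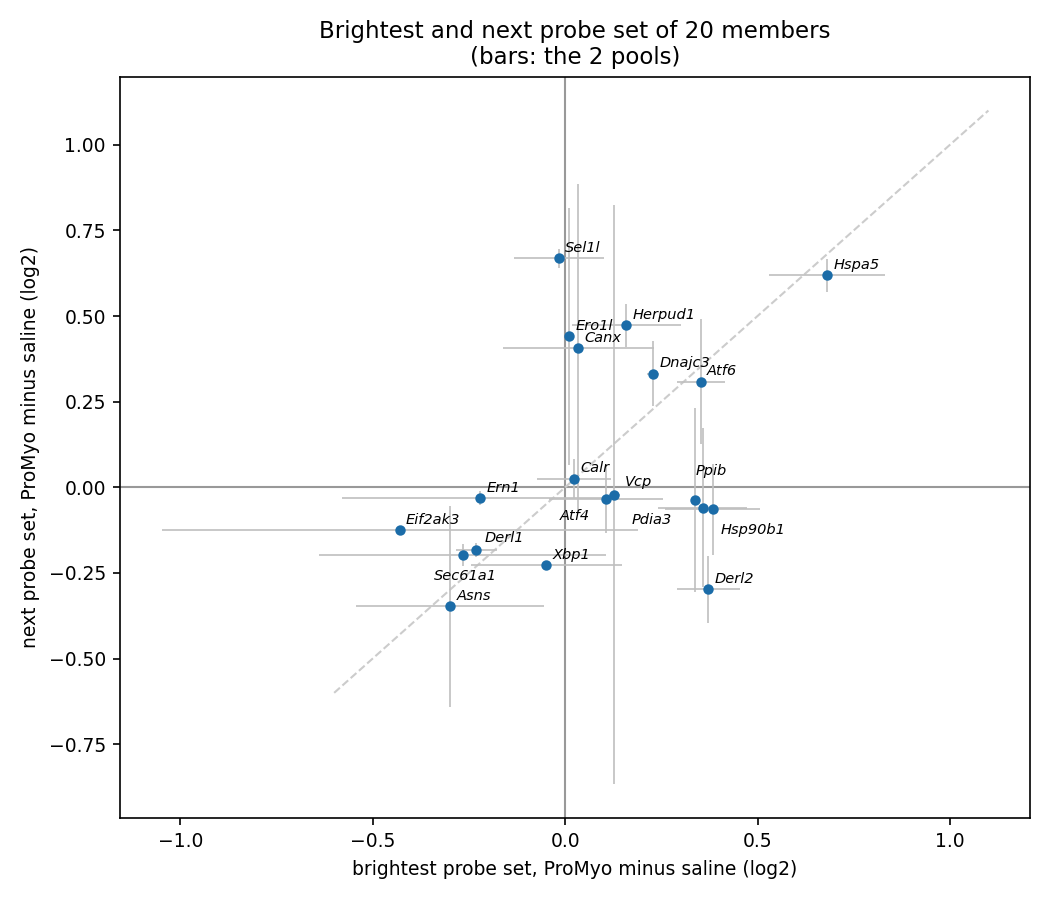
Mean difference ProMyo minus saline (log2) at the brightest (horizontal) and next (vertical) probe set of the 20 members with both above background on all arrays; thin bars span the 2 pools and the dashed line marks equal differences. Hspa5 lies near the dashed line at 0.68 and 0.62, while Derl2 (0.37 and -0.30) and Sel1l (-0.02 and 0.67) lie far from it.

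The members with an ERSE in the promoter had no common direction, and whether the element bears on direction was not tested. Of the 8 members with one, 4 were higher in both pools (Hspa5, Hsp90b1, Dnajc3 and Pdia6), 1 was lower in both (Syvn1) and 3 had opposite signs (Calr, Canx and Creld2), with a median of 0.13. Of the 22 members with a promoter but no ERSE, 11 were higher in both, 3 lower and 8 neither, with a median of 0.08. Herpud1 and Dnajb11, which hold an ERSE-II, are among these 22. Of all genes tested, 29.0% were higher in both pools and 24.0% lower. The 4 genes with an ATF4 site were likewise mixed, with Herpud1 higher in both pools, Asns and Chac1 lower in both, and Trib3 at background.

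Around the members, 6 wider lists of the same pathways held 146 genes, of which 137 were measured. None was called in limma, 5 had an unadjusted p under 0.05, 43 were higher in ProMyo in both pools (31.4%), 23 were lower in both (16.8%) and 71 were neither, beside 29.0% and 24.0% of all genes. List medians ran from -0.03 to 0.06, and all 6 were below 0 with the upper quartile as centre, as was the median of all genes.

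Among 21 other ATF4/CHOP pathway genes, 6 were higher in both pools and 3 lower. Mthfd2, a mitochondrial folate enzyme, read 3.19 on both ProMyo arrays and 1.99 and 2.51 in saline, a difference of 0.94 ± 0.22 (SE; adjusted limma p 0.82), but its next probe set differed by -0.09. Psat1, of serine synthesis, was higher by 0.49 and 0.89 in the pools and by 0.51 at its next probe set. Aldh18a1, of proline synthesis, differed by -0.60 ± 0.27 (SE) but by 0.11 at its next probe set. The factor Atf5 differed by -0.38 ± 0.19 (SE).

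Among 19 other genes of the response's signalling, 6 were higher in both pools and 3 lower. Ppp1r15a, which encodes GADD34 and ends the PERK signal, was higher by 0.45 and 0.34 in the pools (0.40 ± 0.16, SE). Traf2, the adaptor that links IRE1 to kinase signalling, was lower by -0.46 and -0.50 (-0.48 ± 0.18, SE). Tmem33, a membrane protein that binds PERK, differed by 0.41 ± 0.24 (SE).

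Of 24 other degradation genes, 10 were higher in both pools and 4 lower. Ngly1, which strips glycans from proteins on their way to the proteasome, differed by 0.27 ± 0.16 (SE), and Ube2g2, a ubiquitin-conjugating enzyme, by -0.34 ± 0.19 (SE). Edem2 (0.60 ± 0.23, SE) and Man1b1 (-0.27 ± 0.16, SE) were within background on 2 and 3 arrays. The next probe sets of Ube2g2 and Edem2 had the opposite sign, with differences of 0.15 and -0.43. Of 22 other oxidoreductases and co-chaperones, 5 were higher in both pools and 2 lower; Txndc11, a thioredoxin-like protein, was higher by 0.78 and 0.76 in the pools but differed by -0.28 at its next probe set. Prdx4, a peroxidase of the lumen, was lower by -0.79 and -0.10 and differed by 0.56 at its next probe set.

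Of 36 genes for signal peptides, the translocon and N-glycosylation, 12 were higher in both pools and 7 lower. Ganab, a subunit of glucosidase II, was lower by -0.46 and -0.61 (-0.53 ± 0.18, SE), although its next probe set differed by 0.08. Ssr2, a translocon-associated protein, and Sec63, a partner of BiP at the channel, were higher in both pools, with means of 0.52 and 0.42. Sec11c, of the signal peptidase, was higher by 0.22 and 0.76. The next probe sets did not share these directions, with -0.23 for Sec63 and -0.02 for Sec11c.

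Of 15 collagen-folding genes, 4 were higher in both pools and 4 lower, with a median of -0.03. P4ha1 and P4ha2, the alpha subunits that pair with P4hb, were lower in both pools, by -0.35 ± 0.19 (SE) and -0.37 ± 0.18 (SE), and so was the lysyl hydroxylase Plod3, by -0.38 ± 0.19 (SE). Plod2, another lysyl hydroxylase, was higher by 0.50 and 1.63 but differed by -0.32 at its next probe set.

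**Figure D5:**
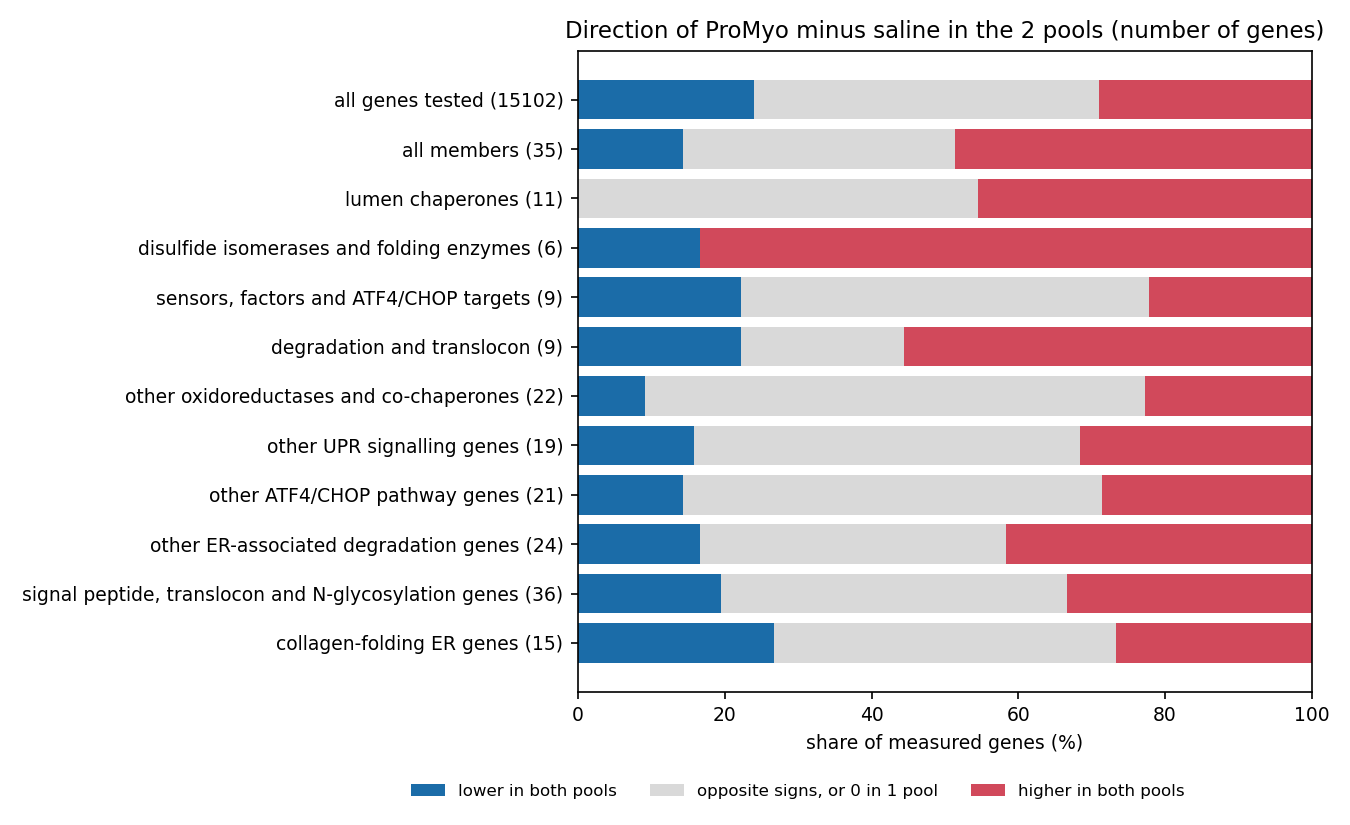
Share of measured genes (%) that were lower in ProMyo in both pools, higher in both, or neither, for all genes tested, all members, the 4 member groups and the 6 wider lists, with the number of genes in parentheses. The 35 members stand at 48.6% higher and 14.3% lower, against 29.0% and 24.0% of all genes, and groups of 6 to 11 genes make coarse shares.

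Markers of other cells in whole muscle were read beside these results, since a lower level in tissue RNA can come from fewer cells of a type or from less RNA per cell, which cannot be told apart. Of 12 fibroblast markers, 7 were lower in ProMyo in both pools and 2 higher. Their summed linear values were 1063 and 1046 in ProMyo and 1274 and 1398 in saline, so the sum was lower on each ProMyo array. Such a sum is weighted to the brightest genes, among them the collagen genes Col1a1 (-0.68) and Col1a2 (-0.78). Other fibroblast markers differed less or were higher: Pdgfra by -0.10, Dpt by -0.06, Dcn by 0.03 and Lum by 0.63. The sum is therefore not a measure of fibroblasts as a whole. Of 12 macrophage markers, 5 were lower in both pools and 1 higher, with sums of 270.9 and 243.4 against 325.7 and 281.0. Of 15 muscle fibre markers, 12 were higher in both pools and 2 lower. The part of these differences in the results for the chaperones was not tested.

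Plasma cells are rich in these chaperones. Of 11 genes on the list of B and plasma cells, 9 were measured, 3 higher in both pools and 1 lower. Their sums were 35.4 and 36.3 in ProMyo and 34.9 and 33.1 in saline. Only Sdc1 and Irf4 were above background on all 4 arrays, and Mzb1 and Ms4a1 were within it on all 4. The sums were weighted to Sdc1, the brightest, at means of 4.31 in ProMyo and 4.28 in saline. They therefore carry little information on plasma cells. Endothelial markers were higher in both pools for 5 of 10 and lower for 0, with sums of 222.9 and 215.0 against 222.3 and 182.1. Of 5 measured adipocyte markers 1 was higher and 1 lower across the pools, the same counts held for 5 Schwann cell markers, and 2 of 4 T cell markers were higher in both.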

How the data were processed

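RNA of 4 pools was measured on Affymetrix mouse arrays. Per the submitters' processing notes, the authors made the deposited log2 values, 1 per probe set, with RMA in Affymetrix Expression Console (tool versions: not given in the sources used here). Their log base was inferred from the range of values. Of 45101 probe sets, 64 controls were left out, and of the rest 34945 had 1 gene symbol, 932 several and 9160 none in the probe table; 34741 matched a RefSeq gene by identifier. Each gene was its brightest single-symbol probe set, and 15102 genes with a mean at or above the 25th percentile of all probe sets (0.45) were kept. Arrays have no read depth, and their number limits the precision.

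The groups were compared with limma 3.58.1 (R 4.3.3; lmFit, eBayes) with Benjamini-Hochberg adjustment over all genes and a threshold of 0.05; the script was tested on simulated data. Groups came from the labels. The pools are paired, since both legs came from the same mice, but the main comparison was unpaired; deviations of same-numbered pools correlated with r = 0.16 across 15102 genes. The alternatives tried were a block for the pool, no filter on low values or one at the 50th percentile, a variance trend, arrays centred on the median or upper quartile, quantile normalization, averaged probe sets, the next probe set, and leaving out each array. The members and lists were chosen with earlier results of these data known. Values on all arrays are given for Hspa5, Hsp90b1, the sensors and factors and the 4 largest differences of each group; from the wider lists, up to 4 genes with the smallest p. Protein sequences were not used here.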

Additional observations from a re-analysis of the deposited data

How the results depend on the processing

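Every alternative called 0 genes and 0 members, the paired fit with the pool as a block included (smallest adjusted p 0.68, against 0.82 without it; 1039 and 874 genes at an unadjusted limma p under 0.05). Direction was less steady. Of 378 differences of the 35 members recomputed under alternatives, 44 had the opposite sign to the value reported, in 24 members; the cause was not tested. Of these, 23 belonged to the 13 members with opposite signs or 0 in a pool (14 with an array left out, 5 with the scaling, 4 with the probe set) and 21 to the 22 members with 1 sign in both pools (8, 5 and 8). Of those 22, 16 kept their sign without any 1 array (11 higher, 5 lower). For the 10 higher and 4 lower members whose groups did not overlap, the sign could not turn in this way, so it is no sign of steadiness.

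The count of 17 of 35 members higher in both pools was 11 of 32 at the next probe sets (34.4%, all genes 27.1%). With an array left out it was 12 to 22 (34.3% to 62.9%, all genes 29.5% to 42.7%). The count of 5 lower in both was 9 with upper-quartile centring (25.7%, all genes 34.6%). It was 9 of 34 with the mean of probe sets (26.5%, all genes 25.9%) and 10 of 32 at the next probe sets (31.2%, all genes 24.7%). With an array left out it was 5 to 10 (14.3% to 28.6%, all genes 27.3% to 36.9%). The count of 0 members at 1.5-fold in both pools was 2 at the next probe sets and 1 to 3 with an array left out. The members' median of 0.09 was 0.036 after quantile normalization, 0.0024 with upper-quartile centring, -0.012 at the next probe sets and -0.0072 to 0.13 with an array left out. The lumen chaperones' median was 0.12 with upper-quartile centring and 0.033 to 0.29 with an array left out. The isomerases' median was -0.034 with upper-quartile centring, 0.15 with the mean of probe sets, -0.048 at the next probe sets and -0.017 to 0.14 with an array left out. The degradation and translocon median was 0.064 after quantile normalization, 0.039 with upper-quartile centring, 0.050 with the mean of probe sets, -0.022 at the next probe sets and -0.10 to 0.25 with an array left out. With upper-quartile centring, which moved the median of all genes to -0.077, the 5 wider lists with a median above 0 all turned: other degradation genes to -0.030, other ATF4/CHOP genes to -0.035, other oxidoreductases to -0.036, the signal peptide list to -0.037 and other signalling genes to -0.075.

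Among the 22 members with 1 sign in both pools, those that turned were, at the next probe sets, Hsp90b1 (-0.064), Pdia3 (-0.059), Ppib (-0.036), Syvn1 (0.56, and 0.10 with the mean of probe sets), Edem1 (-0.17), Derl2 (-0.30) and Vcp (-0.022). With upper-quartile centring they were Pdia4 (-0.035), Pdia6 (-0.033, and -0.017 after quantile normalization) and Ero1l (-0.079, and -0.050 after quantile normalization). With an array left out, Dnajb11 ran from -0.029 to 0.92, Pdia4 from -0.011 to 0.12, Pdia6 from -0.038 to 0.15, Ero1l from -0.023 to 0.045, Ddit3 from -0.020 to 0.69 and Herpud1 from -0.11 to 0.43.

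With 2 arrays per group, 19 of 35 members lay further from 0 than 1 of their moderated standard errors and 7 further than 2. The matching shares of all genes were not computed, so these counts are not a result about the members.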
